A study of Homo sapiens with 6 samples.

Results

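The genes described here are those of autophagy and of the vacuolar proton pump (V-ATPase) in the human line RPE-1, immortalized from retinal pigment epithelium, after depletion of SON, a nuclear speckle protein needed for splicing. They were chosen by name from the table of gene counts: protein-coding genes whose symbol starts with ATG and a digit or with ATP6V0 or ATP6V1, together with ATP6AP1, ATP6AP2, TFEB, TFE3, SQSTM1, ULK1, ULK2 and BECN1. This gave 50 of 58735 genes, of which 46 had enough counts to be tested. The rule used no measured value. It also takes in ATP6V1FNB, a neighbour of ATP6V1F, and the readthrough gene ATP6V1G2-DDX39B, neither of which is counted as a pump subunit below.

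The data were RNA-seq read counts per gene from 6 libraries, 3 in each of 2 groups. Cells of the siControl group received a scramble siRNA and cells of the siSON group an siRNA against SON. Both groups were of the same engineered line, with GFP-tagged Cetn2 marking the centrioles and PLK4, the kinase that starts centriole duplication, driven from an rtTA doxycycline-inducible promoter. PLK4 was induced with 1 µg/mL doxycycline in every library, so no group without induction enters the comparison, which asks how transcript levels differ after SON depletion in PLK4-induced cells.

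Autophagy encloses cytoplasm in a double membrane, the autophagosome, and delivers it to lysosomes for digestion. A kinase complex around ULK1 starts the process, a lipid kinase complex around BECN1 marks the membrane, ATG2 and ATG9 proteins bring and spread lipid, and a conjugation pathway attaches ATG8 proteins to the growing membrane. The V-ATPase, built of a membrane sector (V0) and a cytosolic sector (V1), acidifies lysosomes and endosomes by pumping protons with the energy of ATP. TFEB and TFE3 are transcription factors that move to the nucleus when lysosomes are stressed or nutrients are short, and they bind E-box elements in the promoters of lysosomal and autophagy genes.

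The element that TFEB and TFE3 bind is shown first, because some lysosomal and autophagy genes are known to carry it. Promoters (250 bases before to 50 after a gene's start, RefSeq, GRCh38.p14) were at hand for 41 of the 50 genes and were searched for the E-box core CACGTG and for its extension TCACGTGA, and for the full palindrome of the CLEAR element, which adds a base at each end of TCACGTGA. Each motif reads the same on both strands, and each longer one contains the shorter ones. The core was present in 6 of 41 genes (14.6%), against 8.77% of the 27305 genes with a promoter sequence and 12.4% of the 10299 protein-coding genes that were tested and had one. Windows of 30 bases around the matches follow, 5′ to 3′ on the gene's strand, with the longest motif in capitals.
ATP6V1G1: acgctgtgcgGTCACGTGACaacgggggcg
ATP6V0D1: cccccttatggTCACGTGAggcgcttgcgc
ATG3: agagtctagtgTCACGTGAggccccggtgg
ATG3: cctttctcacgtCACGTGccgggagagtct
ATP6V0B: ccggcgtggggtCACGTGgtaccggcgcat
ATP6V0B: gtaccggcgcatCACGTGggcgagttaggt
ATP6V0E2: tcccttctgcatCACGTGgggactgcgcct
ATG14: aaaacaaaatccCACGTGactggctctcct

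The ATP6V1G1 window lies at chr9:114587699-114587728 on the plus strand and the ATP6V0D1 window at chr16:67481199-67481228 on the minus strand, with the motif beginning 60 bases before the start of each gene. The ATG3 windows lie at chr3:112561940-112561969 and chr3:112561963-112561992 on the minus strand, and the ATP6V0B windows at chr1:43974891-43974920 and chr1:43974909-43974938 on the plus strand. The windows of ATP6V0E2 and ATG14 lie at chr7:149872884-149872913 on the plus strand and chr14:55411834-55411863 on the minus strand. Of the 6 genes, ATG14, ATP6V0B and ATP6V0D1 were higher after SON depletion (3 of 22 higher genes searched, 13.6%). The calls of ATP6V0B and ATP6V0D1 depended on how the libraries were scaled, as described below. ATG3, ATP6V1G1 and ATP6V0E2 were lower (3 of 11 lower genes searched, 27.3%). Over the protein-coding genes tested that had a promoter sequence, the core was in 13.6% of those called higher and 11.8% of those called lower. The 9 genes that were not searched include 7 that were higher, ATP6V1C1, ATP6V1B2 and ATP6V1A among them, and none that was lower. TCACGTGA was found in 3 of the 41 genes (7.32%) beside 1.18% of all genes with a promoter sequence and 2.25% of the protein-coding genes tested. The full CLEAR palindrome was found in 1, ATP6V1G1 (2.44%), beside 0.421% and 0.854%. A match is a description of these letters and not evidence of binding.

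The libraries held 54572365 to 69764836 counts. Levels are given as CPM (counts per 1000000, with library sizes scaled by edgeR's TMM method), and groups of 3 values are in the order of replicates 1, 2 and 3. SON itself measured 295.3, 313 and 284 CPM across siControl and 67.96, 69.96 and 65.0 CPM across siSON, so the groups did not overlap (log2 fold change -2.14, SE 0.06, edgeR adjusted p 6.78e-10). Replicate 1 stood apart from replicates 2 and 3 in each group: the chi-square per degree of freedom was 18.55 to 24.7 for pairs with replicate 1, and 7.21 and 6.77 for the pairs without it. Of the 46 genes tested, 21 were highest in replicate 1 in both groups. Of 8 markers of retinal pigment epithelium, TYR and TTR had 0 counts in all libraries and RPE65 was at 0.258 CPM or less. The 8 together summed to 31.4 to 32.6 CPM in siControl and 40.3 to 46.4 CPM in siSON, mostly from MITF and BEST1, which rose. PMEL went the other way, from 2.04 to 2.12 CPM in siControl to 0.172 to 0.252 CPM in siSON (edgeR adjusted p 3.72e-07), and RPE65 from 18, 6 and 6 counts to 0 in every siSON library. The keratins KRT8 and KRT18 summed to 764 to 863 CPM in siControl and 1331 to 1392 CPM in siSON. Markers of blood, endothelium and other epithelia summed to at most 5.66, 1.39 and 0.254 CPM. The part of these differences in the results below was not tested. The labels do not say that replicates came from separate cultures, so p-values measure the spread between these libraries.

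After SON depletion 40 of the 46 genes tested changed (edgeR quasi-likelihood test, adjusted p under 0.05 over all genes), which is 87.0% beside 71.7% of all 16591 genes tested and 77.4% of protein-coding ones. Higher in siSON were 29 of them (63.0%, beside 35.2% of all genes and 40.3% of protein-coding ones), and 11 were lower (23.9%, beside 36.5% and 37.1%). The 29 include TFE3 and ATP6AP1, for which no direction can be given, as described below. At least a 2-fold change was found for 12 genes, 9 higher and 3 lower, where 29.3% of all genes and 27.3% of protein-coding genes tested changed that much. At least 2-fold higher were 8.72% of all and 8.62% of protein-coding genes, and at least 2-fold lower 20.5% and 18.7%. The median log2 fold change over the 46 genes was 0.45, beside -0.03 over all genes tested and 0.03 over protein-coding ones. The groups did not overlap for 40 of the 46 (75.1% of all genes, 79.9% of protein-coding ones). Without replicate 1 of both groups the counts were 32 higher and 10 lower. When libraries were scaled by total counts alone, which lowered the log2 fold changes of all genes by a median of 0.20 (a shift of -0.20), 23 genes were higher and 11 lower. Over all genes that scaling gave 4441 higher and 7351 lower, beside 5834 and 6054. Cyclic loess normalization shifted all genes by a median of 0.14, whereas the median log2 fold change of the 46 genes was lower under it, at 0.38. It gave 28 of them higher and 9 lower, beside 6007 higher and 5680 lower over all genes. In bulk RNA, fewer cells that carry a transcript and less of it per cell cannot be told apart.

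Among the 21 autophagy genes tested, 13 were higher (61.9%), 7 lower (33.3%) and 1, ATG10, was not called. Of 22 V-ATPase subunits and accessory proteins tested, 14 were higher (63.6%), 4 lower (18.2%) and 4 not called. Both sets held genes that moved in opposite directions, in some cases within a family of paralogs. Beside these counts, and those by role below, stand the 40.3% of protein-coding genes that were higher and the 37.1% that were lower (35.2% and 36.5% of all genes).

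**Figure D1:**
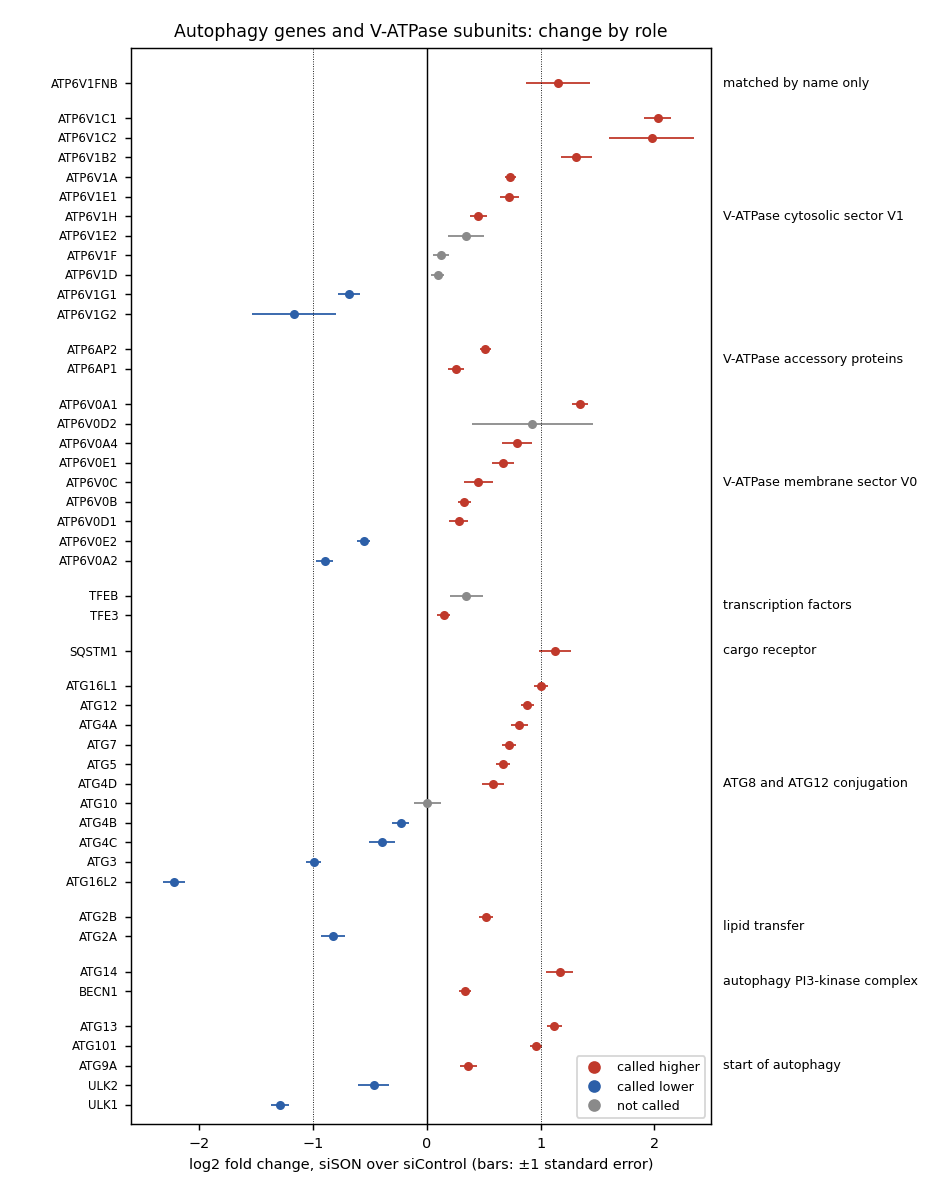
Log2 fold change (siSON over siControl) of the 46 genes tested, grouped by role, with bars of ±1 standard error and dotted lines at a 2-fold change. The values run from -2.22 for ATG16L2 to 2.03 for ATP6V1C1; under scaling by total counts alone or cyclic loess normalization ATP6V1D, ATP6V1F and TFE3 lie below 0 in both, ATG10 in the first and ATP6AP1 in the second.

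The ULK complex, which starts autophagy, showed its kinase falling and its partners rising. ULK1 (ENSG00000177169; GRCh38 chromosome 12, 131894651 to 131923167, plus strand, 28 exons in the principal transcript) is the kinase that receives signals from AMPK and mTORC1. It measured 111, 128 and 121 CPM across siControl and 48.5, 53.4 and 44.9 CPM across siSON. Every siSON library was far below every siControl library, and 40.9% of the control level remained (log2 fold change -1.29, SE 0.08, edgeR adjusted p 6.54e-08). ATG13 (ENSG00000175224; chromosome 11, 46617527 to 46674818, plus strand, 17 exons), the adaptor that ties the kinase to its partners, rose from 100.6, 102 and 112 CPM to 244, 209 and 232 CPM, with no overlap (log2 fold change 1.12, SE 0.07, edgeR adjusted p 7.77e-08). ATG101, which stabilises ATG13, went from 55.0 ± 0.38 to 107 ± 3.51 CPM (mean ± SD, n = 3, as for all values in this form), 0.96 higher on the log2 scale (edgeR adjusted p 3.95e-08).

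The second kinase of the family, ULK2, was much less abundant and also fell, from 5.68 ± 0.70 to 4.10 ± 0.41 CPM (log2 fold change -0.47, edgeR adjusted p 0.00971). That call was lost under cyclic loess normalization (-0.13, adjusted p 0.416). ATG9A, a lipid scramblase carried on vesicles, rose by 0.37 on the log2 scale (adjusted p 6.84e-04), a call lost when total counts alone were used for scaling (0.17, adjusted p 0.064). Its exons overlap those of AC068946.2 on the same strand over 38.8% of their length. ATG9B was too scarce to test, with 25, 7 and 7 reads counted across siControl and 0, 0 and 3 across siSON.

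In the lipid kinase complex both genes rose. ATG14 (ENSG00000126775; chromosome 14, 55366392 to 55411858, minus strand, 10 exons), the subunit that directs the complex to autophagy, measured 23.7, 20.1 and 18.6 CPM across siControl and 54.2, 45.4 and 40.5 CPM across siSON. All siSON libraries were above all siControl libraries, replicate 1 was the highest in each group, and the rise was 1.17 on the log2 scale (SE 0.12, edgeR adjusted p 4.82e-06). BECN1 (ENSG00000126581; chromosome 17, 42810134 to 42833350, minus strand, 12 exons), the scaffold of the complex, moved from 118, 109.4 and 109.9 CPM to 146, 141 and 138 CPM. Those groups did not overlap either (log2 fold change 0.33, SE 0.05, adjusted p 1.85e-04), but the call was lost under cyclic loess normalization (0.07, adjusted p 0.287), and exons of PSME3 and CNTD1 on the other strand cover 17.1% of its exon length. Under scaling by total counts alone the value was 0.14 (adjusted p 0.0349).

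The lipid transfer proteins ATG2A and ATG2B, which channel lipid from the endoplasmic reticulum into the growing membrane, moved in opposite directions. ATG2B (ENSG00000066739; chromosome 14, 96279202 to 96363870, minus strand, 42 exons) measured 46.1, 45.8 and 41.3 CPM across siControl and 62.2, 63.3 and 65.3 CPM across siSON (log2 fold change 0.52, SE 0.06, edgeR adjusted p 2.08e-05; 0.32 under scaling by total counts alone). ATG2A fell from 56.9 ± 2.31 to 32.1 ± 5.62 CPM (log2 fold change -0.83, SE 0.11, adjusted p 4.03e-05). The groups did not overlap for either gene. Exon length was taken as the union over all annotated transcripts. Levels of different genes were compared as CPM per kilobase of that length, a scale that depends on the annotation. On that scale ATG2A made up 69.0% to 72.6% of the ATG2 total in the siControl libraries and 43.2% to 53.2% in the siSON libraries, while the total went from 10.2 ± 0.28 to 8.38 ± 0.61 CPM per kb.

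The conjugation pathway held 11 genes, of which 6 rose, 4 fell and 1 was not called. ATG7, the activating enzyme shared by ATG8 and ATG12, rose by 0.72 on the log2 scale (edgeR adjusted p 1.63e-06). ATG12 and ATG5, which are joined to each other and act with ATG16L1 as the ligase for ATG8, rose by 0.88 and 0.67 (adjusted p 9.69e-08 and 2.89e-06). ATG3, the enzyme that hands ATG8 proteins to lipid, fell from 58.2 ± 3.4 to 29.2 ± 0.73 CPM (log2 fold change -0.99, adjusted p 1.49e-07). ATG10, the corresponding enzyme for ATG12, had 4.76 ± 0.18 and 4.77 ± 0.36 CPM (adjusted p 0.972), and was called higher under cyclic loess normalization alone (0.33, adjusted p 0.0261).

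The ATG16L paralogs moved in opposite directions. ATG16L1 (ENSG00000085978; chromosome 2, 233210051 to 233295674, plus strand, 18 exons), which places the ligase on the membrane, measured 28.9, 27.8 and 29.3 CPM across siControl and 58.5, 56.0 and 57.4 CPM across siSON (log2 fold change 1.00, SE 0.06, edgeR adjusted p 7.10e-08). ATG16L2 (ENSG00000168010; chromosome 11, 72814308 to 72843674, plus strand, 18 exons), its less studied paralog, measured 39.7, 46.4 and 37.6 CPM across siControl and 8.77, 9.48 and 8.30 CPM across siSON. It had the lowest fold change of all 46 genes, with 21.5% of the control level left (log2 fold change -2.22, SE 0.10, adjusted p 8.70e-09). Per kilobase of exon, ATG16L1 held 46.1% to 52.6% of the pair's total in siControl and 89.4% to 90.8% in siSON. On that scale the pair's total differed little, at 9.52 ± 0.40 and 10.5 ± 0.17 CPM per kb. Shares and total both depend on the exon lengths used, 6.047 kb for ATG16L1 and 8.617 kb for ATG16L2. The principal transcripts have the other order, with 3405 nt for ATG16L1 and 2243 nt for ATG16L2. ATG16L1 and ATG3, at log2 fold changes of 1.00 and -0.99, are the genes just inside and just outside the 2-fold limit used here.

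ATG4 proteases trim ATG8 proteins before conjugation and release them from lipid afterwards. ATG4A and ATG4D rose by 0.81 and 0.58 on the log2 scale (edgeR adjusted p 2.03e-06 and 2.26e-04), and ATG4B and ATG4C fell by 0.23 and 0.40 (adjusted p 0.0152 and 0.00949). The fall of ATG4B was lost without siControl replicate 2 (-0.21, adjusted p 0.0559) and without siSON replicate 3 (-0.16, adjusted p 0.0837), and that of ATG4C under cyclic loess normalization (-0.12, adjusted p 0.389). Scaling by total counts alone gave 0.39 for ATG4D and -0.43 for ATG4B. Of the family's summed CPM per kb, ATG4B took 31.6 ± 2.63% in siControl and 21.1 ± 1.46% in siSON. ATG4D was the largest part in every library on that scale, from 36.2% to 47.8%. That rank depends on the exon lengths used, 6.638 kb for ATG4B and 2.278 kb for ATG4D. In CPM, without exon length, ATG4B was higher, at 54.04 in siControl and 46.04 in siSON, beside 23.36 and 35.01 for ATG4D.

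**Figure D2:**
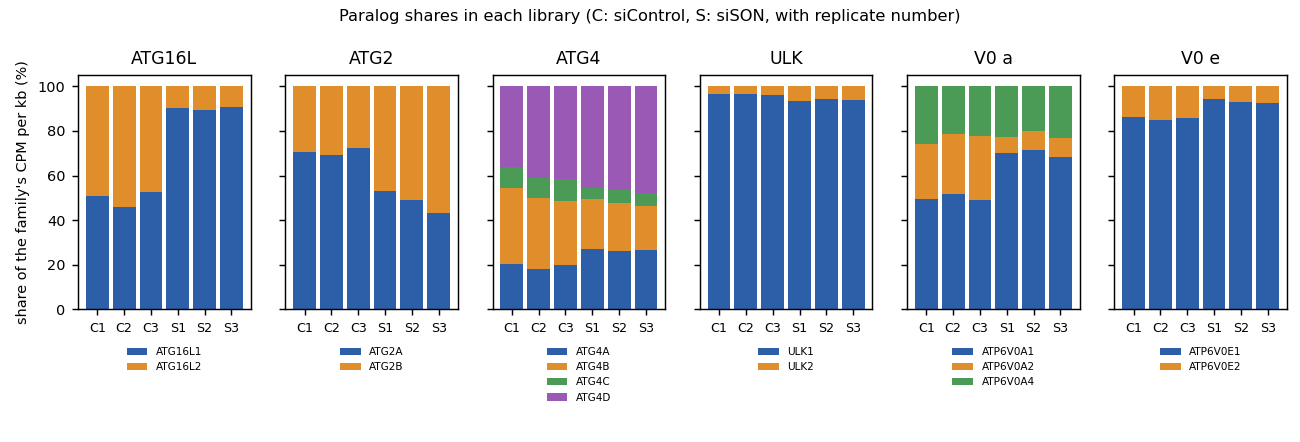
Share of each paralog in its family's summed CPM per kb of exon (percent), in siControl (C) and siSON (S) replicates 1 to 3. Exon length is the union over all annotated transcripts, and the shares depend on it. ATG16L1 lies between 46.1% and 52.6% in siControl and between 89.4% and 90.8% in siSON, and ATP6V0A1 between 48.9% and 51.8% and between 68.4% and 71.5%.

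SQSTM1 (ENSG00000161011; chromosome 5, 179806398 to 179838078, plus strand, 8 exons) binds ubiquitin-tagged cargo and ATG8 proteins and is itself digested with the cargo. It was the most abundant gene of the 50 by CPM, with 535, 397 and 398 CPM across siControl and 1147, 853 and 897 CPM across siSON. Replicate 1 was the highest library of each group, yet the groups did not overlap (log2 fold change 1.12, SE 0.14, edgeR adjusted p 7.27e-05). The log2 fold change was 1.11 without replicate 1 of both groups and 0.72 under cyclic loess normalization (limma adjusted p 3.29e-04). Exons of MRNIP and MGAT4B on the other strand overlap 22.0% of its exon length, and the strand setting of the counting is not given in the sources used here.

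The transcription factors TFEB and TFE3 showed small differences between the groups. TFEB (ENSG00000112561; chromosome 6, 41683978 to 41736259, minus strand, 10 exons) was scarce, with 3.94, 5.11 and 4.52 CPM in siControl and 4.96, 6.53 and 5.76 CPM in siSON, so the groups overlapped. Its log2 fold change of 0.35 (SE 0.14) just missed the threshold (edgeR adjusted p 0.0502) and passed it in DESeq2 (adjusted p 0.0452), with no filter on low counts (adjusted p 0.0369), without siControl replicate 2 (0.42, adjusted p 0.0455), without siSON replicate 1 (0.46, adjusted p 0.014) and without replicate 1 of both groups (0.33, adjusted p 0.0441). Across scalings the TFEB value ran from 0.15 (total counts alone, adjusted p 0.39) to 0.66 (cyclic loess, adjusted p 0.00186). TFE3 (ENSG00000068323; chromosome X, 49028726 to 49043486, minus strand, 10 exons) measured 125, 132 and 134 CPM across siControl and 137, 142 and 154 CPM across siSON. The test gave 0.15 on the log2 scale (SE 0.06, edgeR adjusted p 0.0411), and no direction can be given, since it was -0.05 under scaling by total counts alone and -0.13 under cyclic loess normalization. The TFE3 call was also lost on leaving out any one library except siSON replicate 1, with log2 fold changes of 0.09 to 0.17 and adjusted p of 0.056 to 0.214 in those 5 fits.

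Of the 9 genes of the membrane sector V0, 6 rose, 2 fell and 1 was not called. The calls of ATP6V0B, ATP6V0C and ATP6V0D1 were lost under scaling by total counts alone, as described below. The a subunit, which forms the proton path and directs the pump to its membrane, is encoded by several paralogs. ATP6V0A1 (ENSG00000033627; chromosome 17, 42458844 to 42522611, plus strand, 21 exons) measured 41.8, 40.5 and 36.8 CPM across siControl and 109, 100.1 and 93.5 CPM across siSON. It rose 2.54-fold with no overlap (log2 fold change 1.34, SE 0.07, edgeR adjusted p 3.42e-08). ATP6V0A2, found on the Golgi and endosomes, fell from 26.5 ± 0.56 to 14.3 ± 0.74 CPM (log2 fold change -0.90, adjusted p 9.37e-07). ATP6V0A4, best known from the kidney, was lower in CPM, a scale without exon length, and rose by 0.79 on the log2 scale (adjusted p 2.26e-04). Among these paralogs ATP6V0A1 took 50.1 ± 1.51% of the summed CPM per kb in siControl and 70.02 ± 1.59% in siSON, whereas ATP6V0A2 went from 26.8 ± 2.08% to 7.95 ± 0.90%. The share of ATP6V0A4 overlapped between the groups (20.1% to 25.8% over all libraries). These shares depend on the exon lengths used, 10.96 kb for ATP6V0A1, 13.73 kb for ATP6V0A2 and 4.124 kb for ATP6V0A4. TCIRG1, another a subunit paralog, lies outside the name rule and is not in these shares (0.303 CPM per kb in siControl and 0.0557 in siSON).

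The small e subunit showed the same kind of split. ATP6V0E1 rose from 106 ± 11.4 to 169 ± 22.4 CPM (log2 fold change 0.67, edgeR adjusted p 1.34e-04; 0.39 under cyclic loess normalization), and ATP6V0E2 fell, lying at 71.2 to 77.9 CPM in siControl and at 48.8 to 51.6 CPM in siSON (-0.56, adjusted p 7.87e-06). The share of ATP6V0E1 in their summed CPM per kb was 85.1% to 86.4% in siControl and 92.7% to 94.2% in siSON. That share depends on the exon lengths used, 1.623 kb for ATP6V0E1 and 6.751 kb for ATP6V0E2. Their principal transcripts differ less, at 1433 and 1649 nt. The ring that turns with the protons is made of products of ATP6V0C and ATP6V0B. ATP6V0B rose by 0.33 on the log2 scale (adjusted p 4.29e-04), and the call was lost under scaling by total counts alone (0.13, adjusted p 0.0552) and under cyclic loess normalization (0.10, adjusted p 0.141).

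ATP6V0C was counted at only 5.28 ± 0.51 CPM in siControl and 7.22 ± 0.80 CPM in siSON (log2 fold change 0.45, edgeR adjusted p 0.00709; 0.25 and 0.0905 under scaling by total counts alone, 0.76 under cyclic loess). Exons of AC093525.1 and AC093525.2 on the same strand cover 72.1% of its exon length, and those genes had at most 0.0394 CPM in any library, so the level of ATP6V0C is uncertain. ATP6V0D1, the d subunit that joins the ring to the stalk, rose by 0.28 on the log2 scale (adjusted p 0.0115). The call was lost without siControl replicate 2 (0.21, adjusted p 0.0674) and under scaling by total counts alone (0.08, adjusted p 0.385) or cyclic loess normalization (0.02, adjusted p 0.805). ATP6V0D2, the osteoclast form, was below 1.3 CPM in all libraries and was not called (0.93, SE 0.53, adjusted p 0.141). Its value ranged from 0.38 without siSON replicate 1 to 1.75 without siControl replicate 1 (adjusted p 0.549 and 0.00969), and it was called under cyclic loess normalization (1.57, adjusted p 0.0168), with no filter on low counts (0.93, adjusted p 0.0208) and without replicate 1 of both groups (1.19, adjusted p 0.0298).

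The accessory proteins ATP6AP1 and ATP6AP2 help the pump assemble in the endoplasmic reticulum, and ATP6AP2 is also known as the prorenin receptor. ATP6AP2 (ENSG00000182220; chromosome X, 40579372 to 40606848, plus strand, 9 exons) measured 77.1, 76.4 and 73.8 CPM across siControl and 111, 107 and 107 CPM across siSON, without overlap (log2 fold change 0.52, SE 0.05, edgeR adjusted p 4.12e-06). That value was 0.32 and 0.29 under scaling by total counts alone and cyclic loess normalization, both past the threshold. ATP6AP1 had 128 ± 6.27 and 153 ± 14.1 CPM (0.25, adjusted p 0.00682), and no direction can be given, since the value was 0.06 and -0.03 under those scalings, neither of them past the threshold.

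In the cytosolic sector V1, 6 of the 11 genes tested rose, 2 fell and 3 were not called. Its A and B subunits form the ring that splits ATP. ATP6V1A, the catalytic subunit, rose from 102 ± 1.59 to 169 ± 4.2 CPM (log2 fold change 0.73, edgeR adjusted p 1.65e-07; 0.46 under cyclic loess normalization). ATP6V1B2 (ENSG00000147416; chromosome 8, 20197367 to 20226819, plus strand, 14 exons), the widely expressed B subunit, measured 156, 112.5 and 119.9 CPM across siControl and 374, 296 and 297 CPM across siSON. Replicate 1 was the highest of each group here too, the groups did not overlap, and the rise was 1.31 on the log2 scale (SE 0.13, adjusted p 1.79e-05).

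ATP6V1C1 (ENSG00000155097; chromosome 8, 103021063 to 103073051, plus strand, 13 exons) encodes the C subunit, which clamps V1 onto V0 and leaves when the pump comes apart. It measured 58.7, 47.4 and 49.9 CPM across siControl and 252, 189.5 and 195 CPM across siSON, the highest fold change of the 46 genes. The lowest siSON library was far above the highest siControl library, and the level was 4.07-fold higher (log2 fold change 2.03, SE 0.12, edgeR adjusted p 2.36e-07). Its paralog ATP6V1C2 (ENSG00000143882; chromosome 2, 10721100 to 10785110, plus strand, 13 exons) was barely present, at 0.244, 0.220 and 0.201 CPM in siControl and 1.17, 0.524 and 0.925 CPM in siSON (1.98, SE 0.37, adjusted p 5.95e-04). Exons of PDIA6 and AC092687.3 on the other strand cover 29.9% of ATP6V1C2 exon length, and ATP6V1C1 held at least 99.2% of the pair's CPM per kb in every library.

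Of the stalk subunits, ATP6V1E1 rose and ATP6V1G1 fell, although their proteins pair to form the outer stalks of the pump. ATP6V1E1 went from 115 ± 11.7 to 189 ± 17.5 CPM (log2 fold change 0.72, edgeR adjusted p 1.52e-05; 0.44 under cyclic loess normalization), and ATP6V1G1 from 74.4 ± 6.40 to 46.2 ± 6.31 CPM (-0.69, adjusted p 6.73e-05). Neither pair of groups overlapped. ATP6V1H, a regulatory subunit, rose by 0.45 on the log2 scale (adjusted p 1.62e-04), or 0.26 and 0.27 under scaling by total counts alone and cyclic loess. ATP6V1D and ATP6V1F, which form the central shaft, were not called: ATP6V1D had 122 ± 6.11 and 131 ± 4.88 CPM (0.10, SE 0.06, adjusted p 0.153) and ATP6V1F 86.4 ± 7.58 and 94.3 ± 5.40 CPM (0.13, SE 0.07, adjusted p 0.137). Both were below 0 under scaling by total counts alone and under cyclic loess normalization, and the fall of ATP6V1D passed the threshold in the latter (-0.17, adjusted p 0.014). ATP6V1F rose past it without siControl replicate 1 (0.18, adjusted p 0.0344) and without replicate 1 of both groups (0.13, adjusted p 0.0357).

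Per kilobase of exon the main V1 subunits stood in another order in the siSON group. In siControl ATP6V1C1 was the lowest of ATP6V1A, ATP6V1B2, ATP6V1C1, ATP6V1D, ATP6V1E1, ATP6V1F, ATP6V1G1 and ATP6V1H, at 8.89 CPM per kb, followed by ATP6V1H at 11.5 and ATP6V1B2 at 16.6. In siSON ATP6V1C1 was at 36.2 CPM per kb, beside 41.2 for ATP6V1B2 and 35.4 for ATP6V1G1, which had been at 57.04 in siControl. ATP6V1F was the highest in both groups, at 109.5 and 119.5 CPM per kb. Exons of KCP on the other strand cover 23.7% of ATP6V1F exon length. Exon length here is the union over all annotated transcripts, so the order depends on that annotation.

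Forms of V1 subunits that are known from single tissues had low levels. ATP6V1G2 (ENSG00000213760; chromosome 6, 31544462 to 31548427, minus strand, 3 exons), the brain form, measured 0.817, 0.786 and 0.562 CPM across siControl and 0.293, 0.194 and 0.472 CPM across siSON (log2 fold change -1.17, SE 0.37, edgeR adjusted p 0.0142). The call was lost without siSON replicate 2 (-0.91, adjusted p 0.0534), without replicate 1 of both groups (-1.03, adjusted p 0.0555) and under cyclic loess normalization (-0.69, adjusted p 0.117). Its exons overlap those of ATP6V1G2-DDX39B on the same strand over 13.7% of their length. That readthrough gene had 2 counts in siControl replicate 3 and 0 in every other library. ATP6V1E2, the testis form, was not called (0.35, SE 0.16, adjusted p 0.0687), and was called without siSON replicate 3 (0.46, adjusted p 0.0287) and under cyclic loess normalization (0.70, adjusted p 0.00256). ATP6V1B1 and ATP6V1G3, both known from the kidney, had at most 7 counts in any library and were not tested, as was ATP6V1G2-DDX39B. ATP6V1FNB (ENSG00000272899; chromosome 7, 128866308 to 128872044, plus strand, 2 exons), which follows ATP6V1F on the chromosome, measured 1.39, 0.598 and 0.950 CPM across siControl and 2.67, 1.90 and 1.99 CPM across siSON (1.15, SE 0.28, adjusted p 0.00343).

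**Figure D3:**
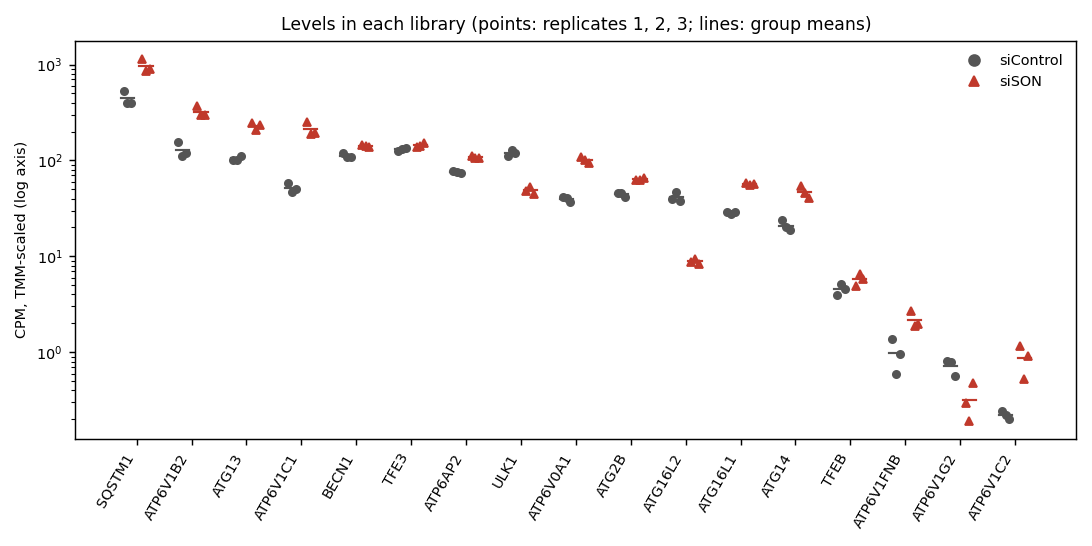
CPM (log axis) of 17 genes in each library, with circles for siControl, triangles for siSON, replicates 1 to 3 from left to right and lines at the group means. The groups overlap only for TFEB, and replicate 1 is the highest of both groups for, among others, SQSTM1, ATP6V1B2, ATP6V1C1 and ATG14.

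Gene structure was compared between the genes that rose and fell, since SON acts in splicing and gene counts themselves do not show splicing. The principal transcripts of the 29 genes that rose had a median GC content of 48.8% and a median intron length of 1835 nt (median over genes of each gene's median), and those of the 11 that fell had 48.9% and 1428 nt. Over protein-coding genes tested the corresponding medians were 47.4% and 2192 nt for higher genes and 53.7% and 1294 nt for lower ones. Across the 46 genes the Spearman correlation of log2 fold change was -0.25 with GC content and 0.27 with median intron length, and across protein-coding genes -0.21 (n = 12967) and 0.25 (n = 12663). These correlations are across genes of the same libraries and are given as descriptions.

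Within paralog pairs that moved in opposite directions, the gene that fell had the higher GC content in some cases and not in others. ATG16L2 had 62.9% GC and a median intron of 364 nt, beside 50.7% and 1506 nt for ATG16L1, which rose. ATG2A had 64.0% GC and a median intron of 148.5 nt, beside 44.2% and 949 nt for ATG2B, which rose. ATP6V0E2, which fell, had 60.6% GC and a median intron of 1428 nt, beside 44.1% and 14031 nt for ATP6V0E1. ATP6V0A2, which fell, had 43.6% GC and a median intron of 1522 nt, beside 49.0% and 2182 nt for ATP6V0A1. ATG4D rose with the highest GC content of the 46 genes, 64.8%, and a median intron of 457 nt.

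**Figure D4:**
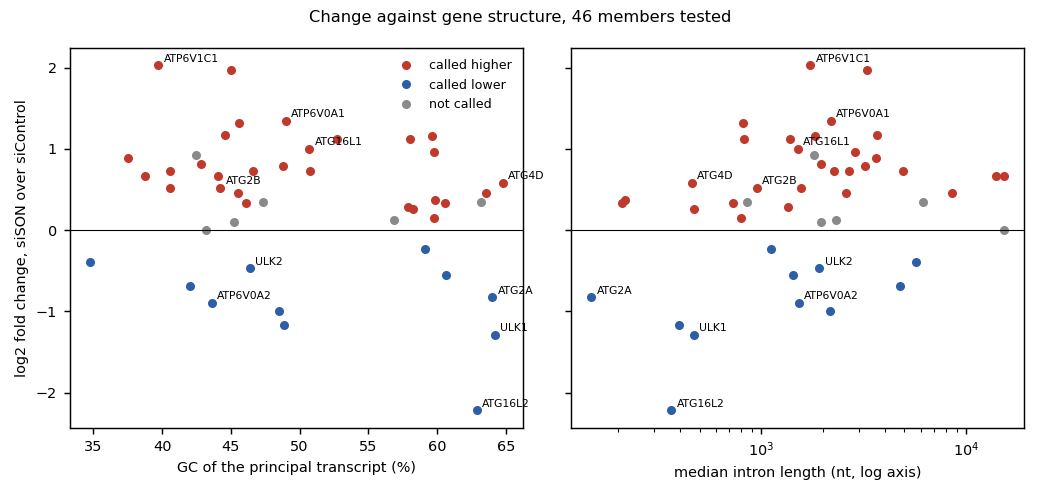
Log2 fold change (siSON over siControl) against GC content of the principal transcript (percent) and against median intron length (nt, log axis) for the 46 genes tested. ATG16L2, ULK1 and ATG2A, with GC content of 62.9% to 64.2% and median introns of 148.5 to 469 nt, lie low in both plots, while ATG4D, at 64.8% and 457 nt, lies above 0.

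Of 102 other genes of autophagy and lysosomes, listed from general knowledge, 97 were tested, 45 rose and 33 fell (median log2 fold change 0.16). The 80.4% that changed is near the 77.4% of all protein-coding genes tested, and 46.4% were higher and 34.0% lower, beside 40.3% and 37.1%. RB1CC1, the scaffold of the ULK complex, rose by 0.94 on the log2 scale (edgeR adjusted p 4.84e-07), as ATG13 and ATG101 did. Of 6 further genes of the lipid kinase complexes 3 rose and 1 fell: RUBCN, an inhibitor of autophagy, by 1.35, and PIK3C3, the catalytic subunit, by 0.84, while AMBRA1 fell by 0.23 (adjusted p 1.93e-07, 2.71e-07 and 0.00601). Of 7 genes of phagophore growth 4 rose and 3 fell. WIPI1, which reads the lipid mark, rose by 1.43 and its relative WDR45 fell by 1.52 (adjusted p 2.10e-08 and 6.72e-08). TMEM41B and VMP1, lipid scramblases that act together, went opposite ways, by 0.98 and -0.65 on the log2 scale (adjusted p 6.18e-07 and 1.99e-06).

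The ATG8 family, the substrates of the conjugation pathway, had 6 genes tested, of which 5 rose. GABARAPL1 went from 54.8 ± 5.24 to 159 ± 11.96 CPM and GABARAPL2 from 46.4 ± 2.84 to 87.7 ± 1.82 CPM (log2 fold changes 1.54 and 0.92, edgeR adjusted p 2.49e-08 and 1.61e-07). MAP1LC3C, at 0.356 ± 0.10 CPM in siControl, fell by 1.501 on the log2 scale (adjusted p 0.0113), a call lost without replicate 1 of both groups (-1.277, adjusted p 0.0645) and under cyclic loess normalization (-0.82, adjusted p 0.118). MAP1LC3A had 0 counts in all libraries. Of 11 cargo receptors other than SQSTM1, 6 rose and 4 fell. The smallest adjusted p among the rises were those of TAX1BP1 and CALCOCO2 (log2 fold changes 0.93 and 0.65), and among the falls those of OPTN and PHB2 (-0.78 and -0.55). Of 13 genes of fusion with the lysosome 6 rose and 4 fell. VPS33A and VPS16, which bind each other in the tethering complexes of endosomes and lysosomes, moved apart, by 1.93 and -1.51 on the log2 scale (edgeR adjusted p 2.95e-08 and 5.03e-08). YKT6, a SNARE, rose by 0.61, and TECPR1 fell by 2.01 (adjusted p 9.46e-07 and 7.77e-08).

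Among 11 further V-ATPase genes tested, listed as assembly factors and regulators, 3 rose, 5 fell and 3 were not called. That list also holds TCIRG1, an a subunit paralog and not an assembly factor. TCIRG1 was scarce and fell from 1.33 ± 0.26 to 0.244 ± 0.11 CPM (log2 fold change -2.42, edgeR adjusted p 5.13e-05). WDR7, which works with the DMXL proteins in putting V1 and V0 together, fell from 28.8 ± 0.74 to 8.63 ± 0.76 CPM (log2 fold change -1.74, edgeR adjusted p 1.79e-08). VMA21, an assembly factor of V0, fell by 0.94 (adjusted p 1.58e-07), whereas DMXL1 and DMXL2 rose by 0.47 and 0.44 (adjusted p 1.17e-04 and 2.41e-04). Of 9 further genes of the TFEB family and its regulators 4 rose and 2 fell. TFEC and MITF, relatives of TFEB, rose by 1.51 and 0.52 (adjusted p 7.73e-07 and 3.48e-05), and the Rag GTPases RRAGB and RRAGC fell by 1.38 and 0.86 (adjusted p 6.51e-07 and 0.00117).

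Of 33 lysosomal enzymes and membrane proteins tested 13 rose and 13 fell, with a median log2 fold change of -0.08. Those shares, 39.4% each, are near the 40.3% and 37.1% of protein-coding genes. OSTM1, the partner of the chloride transporter CLCN7, and LIPA, the acid lipase, rose by 1.74 and 0.89 (edgeR adjusted p 1.76e-08 and 2.35e-07). ARSA, arylsulfatase A, fell from 24.2 ± 0.44 to 3.58 ± 0.06 CPM, and GUSB, beta-glucuronidase, from 62.2 ± 3.34 to 14.02 ± 1.3 CPM (-2.76 and -2.15 on the log2 scale, adjusted p 1.33e-09 and 3.92e-09).

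**Figure D5:**
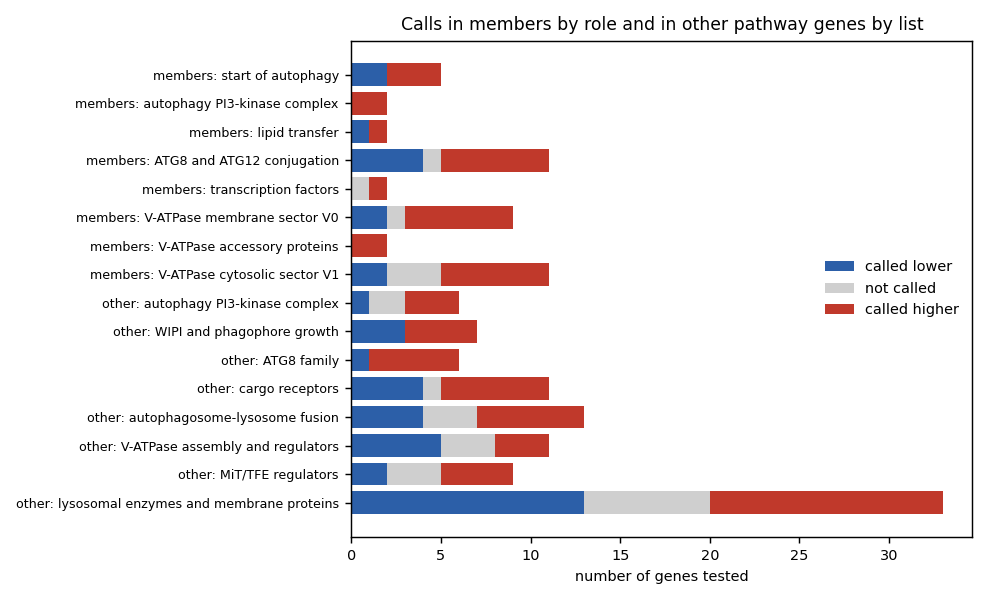
Number of genes called higher, called lower or not called in the siSON libraries, for the genes described here by role and for the other genes of the pathway by list (lists with at least 2 genes tested). Among V0 subunits 6 of 9 were higher and among V1 subunits 6 of 11, beside 40.3% of all protein-coding genes tested. Under scaling by total counts alone the V0 subunits ATP6V0B, ATP6V0C and ATP6V0D1 lost the call. In the list of V-ATPase assembly and regulators, which also holds the a subunit paralog TCIRG1, 3 of 11 were higher, and 13 of 33 lysosomal genes were.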

How the data were processed

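The authors deposited raw counts per gene, with 1 column per library and no pooling, per the file headers. Cutadapt 1.16, STAR 2.5.2a, featureCounts 1.6.2, DESeq2 1.28.1 and build hg38 are named in the submitters' processing notes. Which annotation was used, and how strand and multi-mapping reads were handled in counting, is not given in the sources used here. Besides the genes for which it is given above, exons on the other strand overlap, among others, ATG101 (19.2% of exon length), ATG7 (18.1%) and ATP6V0D2 (16.7%). For ATG4D and ATP6V0E2 that overlap is 15.0% and 13.0%. All 58735 identifiers matched GENCODE release 29 (GRCh38), from which positions, exon lengths, overlaps, GC content and introns were taken. Columns were matched to libraries by title.

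The test was run in edgeR 4.0.16 under R 4.3.3: filterByExpr (minimum count 10), TMM scaling, robust quasi-likelihood fit on group alone, Benjamini-Hochberg adjustment over all 16591 genes tested, threshold 0.05. Standard errors were derived from the fold change and the F statistic. The script was run on simulated counts with few genes changed, as many up as down, and a single dispersion. Such counts cannot test how the scaling behaves when most genes change, as they did here. CPM used TMM-scaled library sizes. A floor of 3 counts was 0.0430 to 0.0550 CPM by total counts without that scaling. This floor covers counting error only.

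Values in every library are given for SON, TFEB, TFE3, SQSTM1, ULK1, BECN1, every gene changed at least 2-fold, and the gene with the smallest adjusted p in a role without one. Of each list of other pathway genes, up to 2 rises and 2 falls with the smallest adjusted p are named, and TCIRG1 is named besides. Genes and lists were chosen with earlier results of these data known. RefSeq promoter entries were not used for ATG4D, ATP6V0D2, ATP6V0E1, ATP6V1A, ATP6V1B2, ATP6V1C1, ATP6V1E2, ATP6V1FNB and ATP6V1H. Alternatives were DESeq2 1.42.0, limma 3.58.1 voom, other scalings and filters, a replicate block and leaving out libraries.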

Additional observations from a re-analysis of the deposited data

How the results depend on the processing

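The number of changed genes among the 46 tested (40) ranged from 34, under scaling by total counts alone, to 43, and from 38 to 41 on leaving out one library at a time. Changes of at least 2-fold numbered 12, with 9 without siSON replicate 1 and at most 13. All other planned counts stayed within 1.5 times. Over 15 alternatives, single genes kept their direction and their side of the threshold in 633 of 687 values, lost the call in 24, gained it in 18 and changed sign in 12. For ATG10 the sign changes were -0.192 (total counts alone) and -0.0517 (mean count of at least 50), and leaving out one library at a time gave -0.0448 (without siSON replicate 2) to 0.0631, with -0.0436 and -0.0102 without siControl replicates 1 and 3. Under scaling by total counts alone the log2 fold changes of ATP6V1F, TFE3 and ATP6V1D were -0.0705, -0.0498 and -0.10. Under cyclic loess normalization they were -0.10, -0.13 and -0.17, and that of ATP6AP1 was -0.0265. The cause was not tested.

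For the 31 other pathway genes named for their adjusted p (without TCIRG1), 462 of 464 values kept direction and call. MAP1LC3C lost its call under cyclic loess normalization and without replicate 1 of both groups.

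Same-numbered libraries correlated in their deviations from the group means by 0.19, 0.05 and 0.12 for replicates 1, 2 and 3, so the numbers were not taken as pairs. Every library correlated best with its own number, a hint from the data and not from a stated design. The sample numbers in the column headers also run in order of replicate number. With the replicate block 43 genes changed, 32 higher and 11 lower, and all 40 calls made without it were kept. The calls it added were TFEB (0.35, adjusted p 0.0142), ATP6V1F (0.13, adjusted p 0.0257) and ATP6V0D2 (1.00, adjusted p 0.0166). The core motif CACGTG was found in 6 genes, TCACGTGA in 3 and the full CLEAR palindrome in 1. The 3-count floor limits ATG9B, ATP6V1B1, ATP6V1G3 and ATP6V1G2-DDX39B. The omission of replicate 1 of both groups was chosen after seeing the data.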
